A study of Mus musculus with 8 samples.

Results

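Adult cortical thymic epithelial cells (cTEC) were compared with adult medullary thymic epithelial cells (mTEC) in 4 of the 8 single-cell RNA-seq libraries of the series, 2 libraries of each kind. The libraries were chosen by their labels, and within them every barcode with at most 5% of its unique molecular identifiers (UMIs, each standing for 1 captured mRNA molecule) from mitochondrially encoded genes and with at most 5000 genes detected was kept. This left 8243 cells, 1042 cTEC and 7201 mTEC, of 28334 barcodes in the whole series. The study followed TEC from fetal to adult life, and its fetal and newborn libraries were not analysed here. All 4 adult libraries were labelled thymus, WT and C57 B6 (CD45.2), with no further allele or agent and no age beyond adult. Live CD45-negative EpCAM-positive cells (DAPI- EpCAM+ CD45-) had been sorted as Ly51+ UEA-1- for cTEC and as Ly51- UEA-1+ for mTEC. Replicate 1 of each kind belonged to the first of 2 captured data sets and replicate 2 to the second. No source used here says whether the libraries came from separate animals, so p-values measure the spread between these samples only, which may be technical.

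The thymus trains developing T cells in sequence. Cortical epithelium attracts lymphoid progenitors, gives them Notch and cytokine signals, and displays self peptides made by its own proteases for positive selection. Medullary epithelium then displays proteins that belong to other organs, much of it under the transcriptional regulator Aire, so that T cells against them are deleted or diverted to the regulatory lineage. Medullary cells also include subsets that resemble epithelia of other tissues, among them keratinised, tuft, microfold, muscle, ciliated and neuroendocrine cells.

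The libraries differed in size. The cTEC libraries held 507 and 535 cells and the mTEC libraries 1586 and 5615, with 2257967 and 4047375 UMIs against 16693205 and 67536650. Median UMIs per cell were 3996 and 7062 in cTEC and 9500.5 and 11386 in mTEC. Any pair of libraries shared from 0 to 10 barcodes. Levels are given as CPM, the UMIs of a gene scaled to a library total of 1000000, and 1 UMI was worth less in the larger mTEC libraries, so a gene at 0 is bounded less tightly in cTEC.

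The sort labels were checked against the genes they rest on. Enpep, which encodes the Ly51 antigen used as the gate, stood at 43.8 and 29.7 CPM in the cTEC libraries and at 1.20 and 1.54 CPM in the mTEC libraries. Since Ly51 set the groups, that difference is no finding. After each cell was thinned to 2000 UMIs, 58.3% and 72.4% of cTEC held a UMI of Psmb11 or Prss16, both of which mark the cortex, against 6.24% and 6.14% of mTEC. The mTEC share is printed beside that in cTEC because free RNA can give UMIs in cells that do not express a gene, and its source was not tested. Taken singly, Psmb11 was in 0.504% and 1.15% of mTEC and Prss16 in 5.80% and 5.19%, so the pair did not keep the ratio they had in cTEC (39.5% and 57.7% for Psmb11, 51.5% and 66.9% for Prss16). Aire UMIs were found in 34.6% and 40.4% of mTEC and in 0.68% and 0.57% of cTEC. The 2 cTEC libraries did not look alike in every marker. Ccl21a, a chemokine of immature medullary cells, was seen in 39.5% of cells of cTEC replicate 1 and in 6.13% of cells of replicate 2, against 65.1% and 75.5% of mTEC.

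**Figure D1:**
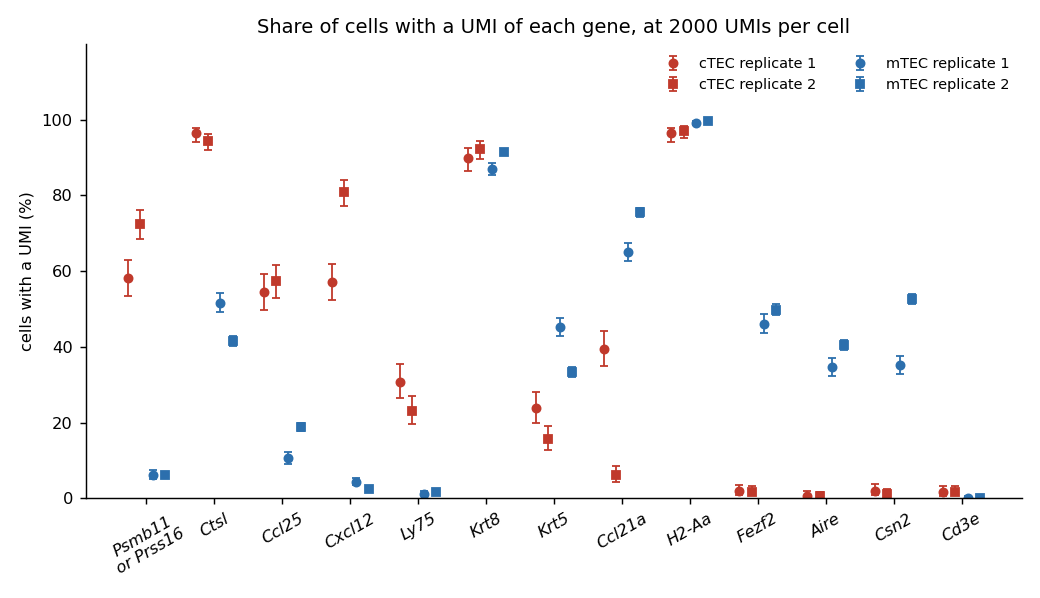
Share of cells with at least 1 UMI of each gene (percent, vertical axis) in the 4 libraries, thinned to 2000 UMIs per cell. Cells with fewer UMIs were left out, and bars are exact 95% binomial intervals that cover counting error only. Psmb11 or Prss16 lay at 58.3% and 72.4% in cTEC (red) and near 6% in mTEC (blue), Aire at 34.6% and 40.4% in mTEC and under 1% in cTEC, and Ccl21a separated the 2 cTEC libraries.

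Genes of other cells moved with the groups. For thymocytes the comparison was also run without the cells that held their transcripts, as given with the counts of genes below, and the part of the other cell types in the results was not tested. Of 12 thymocyte markers, 5 were higher in cTEC, with summed shares of UMIs of 0.0140% and 0.0107% in cTEC against 0.00446% and 0.00366% in mTEC. Of 6 erythroid and 6 B cell markers listed, 5 and 3 were high enough to test and each of these was lower in cTEC. Of the erythroid markers tested, 4 had passed the filter only through mTEC, and Hba-a2 was at 0 in cTEC. The erythroid list held 0.00013% and 0.00022% of cTEC UMIs and 0.00846% and 0.0108% of mTEC UMIs, and the B cell list 0.00018% and 0.00037% against 0.00313% and 0.00419%. Of 11 myeloid markers tested, 4 were lower in cTEC, but the summed share was 0.0409% and 0.00527% in cTEC and 0.0513% and 0.0641% in mTEC, so cTEC replicate 1 lay close to the mTEC libraries. Endothelial markers (2 of 6 higher, both through cTEC alone, as defined below) held 0.00791% and 0.002% of cTEC UMIs and 0.00279% and 0.00176% of mTEC UMIs. Mesenchymal markers (2 higher and 2 lower of 7) held 0.0506% and 0.0323% against 0.00997% and 0.00688%, mostly through Dcn, a small matrix proteoglycan, while Pdgfra was at 0 in cTEC.

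Cortical and medullary epithelium differed at 5110 of 15650 genes tested, which is 32.7% of them. In cTEC 1771 genes were higher (11.3%) and 3339 were lower (21.3%), at an adjusted p under 0.05 in edgeR's quasi-likelihood test with data set as a block. The counts of each library were summed over its cells, so fewer cells of a type and less RNA per cell cannot be told apart. The median log2 fold change of all tested genes was -0.14, and every fold change here is cTEC over mTEC. The 2 data sets gave the same sign for 5085 of the called genes and opposite signs for 25. Among called genes with more than 3 cTEC UMIs, 98 were higher by at least 4 on the log2 scale and 213 lower; no called gene lacked an mTEC UMI, and mTEC held more UMIs. Among the 4214 genes with a mean level above 5 log2 CPM, the split was even, with 601 higher and 623 lower. A gene could pass the filter on low counts (0.967 CPM in 2 libraries) through its mTEC level alone, as 2072 tested genes did, and such a gene had to be lower in cTEC to be tested. These supplied 1642 of the 3339 lower calls. Another 302 tested genes passed through their cTEC level alone and had to be higher in cTEC, among them 3 of the 6 endothelial markers. For the 961 called genes with no UMI in either cTEC library, the difference is given as a bound against 3 UMIs over both cTEC libraries. The count of calls fell to between 2051 and 2922 when 1 library was left out, and to 2591 with DESeq2. Without the cells that held thymocyte transcripts, an alternative added after the data were seen, 5096 genes passed, of which 1795 were higher in cTEC and 3301 lower. Differences named below also passed the threshold with any 1 library left out, except where this is stated otherwise. Those fits also dropped the block, so they mix the omitted library with differences between the data sets. The counts of list members below come from the fit with all libraries.

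**Figure D2:**
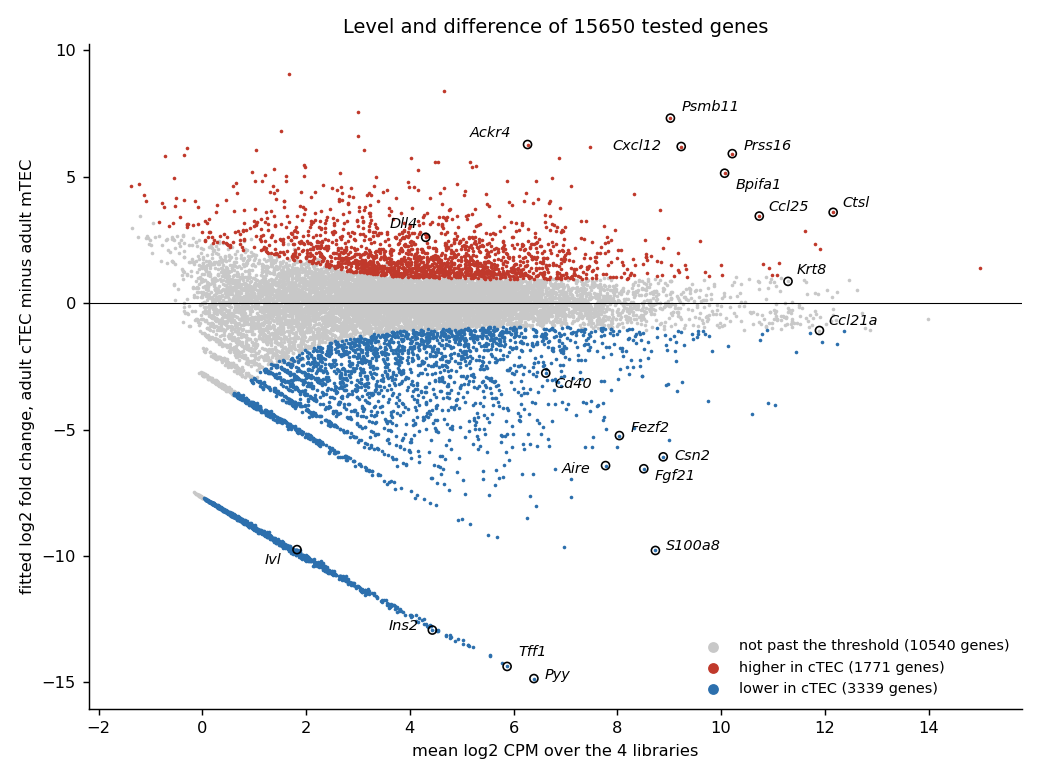
Mean level (log2 CPM over the 4 libraries, horizontal axis) against fitted log2 fold change of cTEC over mTEC (vertical axis) for every tested gene, with 1771 genes higher in cTEC in red, 3339 lower in blue and the rest in grey. Psmb11, Cxcl12 and Prss16 lay above 5 on the vertical axis at high mean level; the lowest diagonal band holds genes without a cTEC UMI, whose fitted values depend on the prior count and are not sizes of effect.

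Most genes tested that make cortical peptides or support thymocytes were higher in cTEC. Of 7 genes listed for cortical peptide processing other than Enpep, which the sort used, 6 were higher. The median log2 fold change of the 7 was 3.59, against -0.14 over all genes. The member that did not pass was Foxn1, a transcription factor rather than a processing gene. Psmb11, the catalytic subunit that defines the thymoproteasome, was at 678 and 1395 CPM in cTEC and at 3.91 and 8.57 CPM in mTEC, a log2 fold change of 7.31 ± 0.52 (SE, 2 libraries a group). Prss16, a thymus serine protease of the class II pathway, was at 1654 and 3053 CPM in cTEC and 34.6 and 36.3 CPM in mTEC (5.91 ± 0.51). Ctsl, the lysosomal protease cathepsin L, was at 7417 and 9714 CPM against 883 and 504 CPM (3.59 ± 0.50). For each of these 3 genes both cTEC libraries stood above both mTEC libraries. Ly75, the endocytic receptor DEC-205, was also higher, at 264 and 174 CPM against 5.53 and 7.84 CPM (4.93 ± 0.45). So was Cd83, which holds class II molecules on the surface, at 155 and 248 CPM against 22.8 and 20.7 CPM (3.10 ± 0.41). Foxn1, the transcription factor on which TEC of both regions depend, was at 104 and 79.2 CPM in cTEC and 41.4 and 50.04 CPM in mTEC, and did not pass the threshold (0.91 ± 0.38, adjusted p = 0.0547 in edgeR).

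Ligands for thymocytes followed the same side. Of 12 tested, 9 were higher in cTEC (75%, against 11.3% of all genes) and 2 lower (16.7%, against 21.3%), with a median of 2.30. Cxcl12, the chemokine that holds CXCR4-bearing progenitors in the cortex, was at 760 and 1615 CPM in cTEC and 19.2 and 10.8 CPM in mTEC (6.19 ± 0.53). Ccl25, which draws CCR9-bearing progenitors, was at 2447 and 3868 CPM against 228 and 315 CPM (3.44 ± 0.46). Both chemokines were therefore read in both epithelia and were higher in cTEC in both data sets. Ackr4, a scavenger of CCR7 and CCR9 ligands counted with them, was at 205 and 119 CPM against 2.28 and 1.59 CPM (6.27 ± 0.47). Kitl, the stem cell factor of early progenitors, was at 58.1 and 90.1 CPM against 4.27 and 6.37 CPM (3.72 ± 0.43). Dll4, the Notch ligand that commits progenitors to the T lineage, was at 20.1 and 51.0 CPM against 5.11 and 5.24 CPM (2.60 ± 0.45). The morphogen gene Bmp4 was at a low level, at 8.94 and 6.44 CPM against 0.12 and 0.208 CPM (5.29 ± 0.86), and it passed the filter on low counts through cTEC alone, so it had to be higher there. Il7, the survival cytokine of thymocytes, was at 155 and 179 CPM against 99.0 and 54.8 CPM (1.10 ± 0.39, adjusted p = 0.0248 in edgeR). That call was lost with any 1 of the 4 libraries left out, with log2 fold changes from 0.69 to 1.42, and also with DESeq2 (adjusted p 0.0723) or without the block (0.0815). On the other side stood Il15, a cytokine for innate-like lymphocytes, at 16.5 and 25.5 CPM in cTEC and 66.3 and 58.1 CPM in mTEC (-1.65 ± 0.41).

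**Figure D3:**
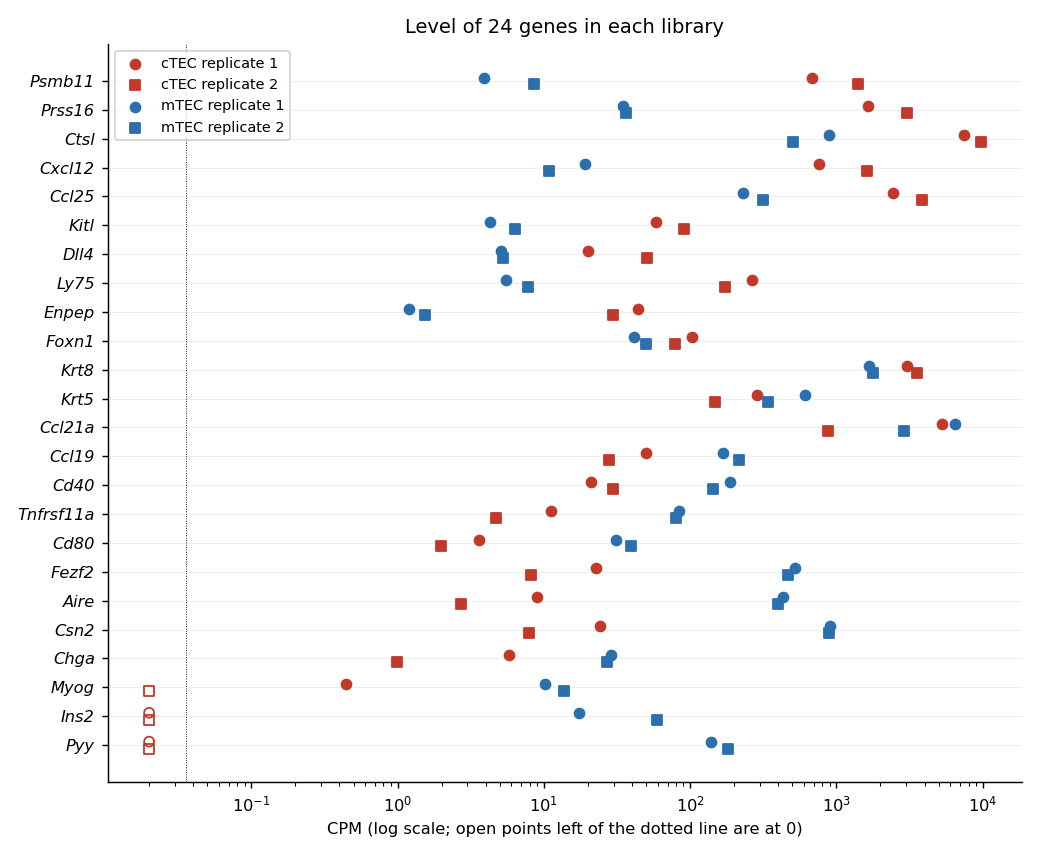
Level of 24 genes in each of the 4 libraries (CPM, log scale), with cTEC in red and mTEC in blue, circles for replicate 1 and squares for replicate 2. Cortical genes such as Psmb11 and Cxcl12 lay to the right in cTEC, Aire and Fezf2 to the right in mTEC, and Foxn1, Krt8, Krt5 and Ccl21a showed small gaps between the groups; open points mark libraries at 0.

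Outside the lists, the genes with the largest rise among well-expressed genes were drawn from several functions. Snhg11, a long noncoding RNA, was at 435 and 299 CPM in cTEC and 3.85 and 5.64 CPM in mTEC (6.18 ± 0.48). Kcnk2, a background potassium channel, was at 252 and 230 CPM against 5.23 and 3.56 CPM (5.72 ± 0.46). P4ha3, a collagen prolyl hydroxylase subunit, was at 93.8 and 69.8 CPM against 2.04 and 1.53 CPM (5.44 ± 0.46). Serpinf1, the secreted factor PEDF, was at 67.5 and 163 CPM against 2.94 and 4.20 CPM (4.85 ± 0.45). Diras2, Plekhb1, Syngr1, Frmd6 and Spon2 completed the named set, with log2 fold changes from 4.42 to 5.57. For each of these genes both cTEC libraries stood above both mTEC libraries.

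The RefSeq promoter windows of 4 genes at the poles of the comparison (GRCm38.p6; bases 120 to 1 before the RefSeq start, written 5′ to 3′ on the strand of the gene) are shown because they hold the 2 short motifs counted below. The windows of Pyy, Csn2, Gip, Spp1 and Nts, which were read in the same way, hold neither motif and are not shown. Capitals mark GCGTC, the reverse complement of the GACGC core known for binding of FOXN1, in the first pair, and TATAAA, the TATA box, in the second pair. Psmb11 lies on chromosome 14 (plus strand, window chr14:54625190-54625309), Cxcl12 on chromosome 6 (plus strand, chr6:117168415-117168534), Aire on chromosome 10 (minus strand, chr10:78043611-78043730) and Ppy, which encodes pancreatic polypeptide, on chromosome 11 (minus strand, chr11:102101320-102101439).
Psmb11: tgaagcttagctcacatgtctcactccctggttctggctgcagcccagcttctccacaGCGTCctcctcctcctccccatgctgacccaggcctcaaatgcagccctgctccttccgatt
Cxcl12: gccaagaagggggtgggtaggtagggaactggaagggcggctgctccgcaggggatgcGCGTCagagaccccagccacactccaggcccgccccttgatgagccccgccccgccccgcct
Aire: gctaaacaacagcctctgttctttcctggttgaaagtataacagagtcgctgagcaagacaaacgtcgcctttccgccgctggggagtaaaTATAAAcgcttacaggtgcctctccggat
Ppy: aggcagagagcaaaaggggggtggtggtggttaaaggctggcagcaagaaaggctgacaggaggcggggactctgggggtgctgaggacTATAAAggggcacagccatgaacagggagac

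In the first pair GCGTC began 62 bases before the start in both windows. In the second pair TATAAA began 29 bases before the start of Aire and 31 bases before that of Ppy. GENCODE places the start of Psmb11 3877 bases upstream of the RefSeq start, while the other 3 starts coincide. GACGC on either strand occurred in the 300-base windows of 50% of the 1306 higher genes with a promoter entry. It occurred for 30.2% of the 2487 lower genes and 50.2% of the 8185 genes not called. Over all 11978 tested genes with an entry the share was 46.1%, where a gene counted if any of its promoters held the motif. Of single promoters, those of untested genes included, 27.2% held it. The motif therefore stood at the same share in genes higher in cTEC as in genes that were not called. TATAAA was sought on the gene's strand, beginning 40 to 20 bases before the start. It was found for 1.76% of higher genes, 6.96% of lower genes and 1.37% of genes not called, against 2.57% of all tested genes. Of single promoters 1.99% held it there. Among lower genes it was found for 10.7% of the 718 without a cTEC UMI and for 5.43% of the 1769 with one. These are counts of letters in a window and carry no test.

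Proteasome and class I genes did not move as a block. None of 28 constitutive proteasome core and lid genes passed the threshold, with a median log2 fold change of 0.20. Psmb9, an inducible catalytic subunit, was higher in cTEC at 577 and 709 CPM against 210 and 135 CPM (1.85 ± 0.41), a call lost without cTEC replicate 2 or without either mTEC library (1.54 to 2.07). The regulator genes Psme1 and Psme2, which encode the PA28 cap, were lower, at 148 and 106 CPM against 367 and 447 CPM (-1.77 ± 0.40) and at 232 and 248 CPM against 669 and 775 CPM (-1.66 ± 0.40). Without mTEC replicate 2 the call of each was lost (largest adjusted p 0.059 and 0.0982 in edgeR). Over 21 class I genes, 4 were higher and 4 lower (19.05% each way, against 11.3% and 21.3% of all genes), with a median of -0.22. The class I heavy chains H2-K1 and H2-D1 did not pass the threshold (-0.54 ± 0.42 and -0.36 ± 0.42).

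Most class II genes did not pass the threshold, and cathepsin genes lay on both sides. Of 18 class II genes tested, 6 were lower in cTEC (33.3%, against 21.3% of all genes) and 1, Ctsl, was higher (5.56%, against 11.3%). Cd74, the invariant chain, was at 12890 and 13270 CPM in cTEC and 21000 and 17300 CPM in mTEC and did not pass the threshold (-0.62 ± 0.47), and H2-Ab1 did not either (-0.41 ± 0.45). H2-Aa, the alpha chain of the I-A molecule, passed narrowly (-1.12, adjusted p = 0.0453 in edgeR) and lost its call with any 1 library left out. H2-Ob, a subunit of the peptide-loading inhibitor H2-O, was at 4.92 and 5.69 CPM against 26.6 and 34.7 CPM (-2.60 ± 0.46), and H2-Eb2 was at 30.4 and 24.5 CPM against 137 and 132 CPM (-2.38 ± 0.40). Ctss, which encodes cathepsin S, was at 68.8 and 13.6 CPM in cTEC and 197 and 190 CPM in mTEC (-2.70 ± 0.45), but it fell by 3.82 without cTEC replicate 1 and by 1.70 without cTEC replicate 2, and without the block its adjusted p was 0.0507 in edgeR. Of 16 cathepsin genes 3 were higher and 8 lower, but 3 of the 8 had no cTEC UMI and passed the filter through mTEC alone, so they had to be lower. Ctsh and Ctsz, both lysosomal peptidases, were at 64.3 and 24.3 CPM against 413 and 412 CPM (-3.46 ± 0.44) and at 81.8 and 23.5 CPM against 336 and 366 CPM (-3.06 ± 0.44). B cells and myeloid cells also express Ctss, H2-Ob and Ctsh, and the B cell markers tested were higher in mTEC, while 7 of 11 myeloid markers did not pass and their median was 0.54 in the first data set and -4.24 in the second. Their part was not tested. Of 29 lysosomal genes 4 were higher and 5 lower, and of 25 autophagy genes 1 was higher and 1 lower. These shares, 13.8% and 17.2% of the lysosomal genes and 4.0% each way of the autophagy genes, stand beside 11.3% and 21.3% of all genes.

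The medullary regulators Aire and Fezf2 were at low levels in cTEC. Aire was at 8.94 and 2.72 CPM in cTEC and 434 and 399 CPM in mTEC (-6.43 ± 0.52). Fezf2, a second regulator of tissue antigens in the medulla, was at 22.8 and 8.17 CPM against 523 and 466 CPM (-5.24 ± 0.48). Both groups were far apart for these 2 genes. Of 18 genes in the list of Aire and its partners, 3 were lower, 1 higher and 14 did not pass the threshold. Sirt1, a deacetylase that acts on Aire, was at 20.6 and 13.4 CPM against 100.6 and 95.3 CPM (-2.64 ± 0.41). Chromatin and elongation partners with general roles, such as Cdk9 (-0.27 ± 0.39) and Top2b (0.67 ± 0.39), did not pass the threshold.

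The receptor genes for RANK and CD40 were also lower in cTEC, while most genes listed with them did not pass the threshold. Of 23 genes, 8 were lower in cTEC (34.8%, against 21.3% of all genes) and 2 higher (8.7%, against 11.3%), with a median of -0.72. Tnfrsf11a, which encodes RANK, was at 11.2 and 4.70 CPM in cTEC and 83.8 and 80.2 CPM in mTEC (-3.57 ± 0.45). Cd40 was at 21.0 and 29.7 CPM against 186 and 144 CPM (-2.77 ± 0.41). Tnfrsf11b, the decoy receptor for the RANK ligand, was at 5.81 and 5.45 CPM against 130 and 71.3 CPM (-4.15 ± 0.45). The transcription factor gene Relb was lower by less, at 93.8 and 75.7 CPM against 242 and 244 CPM (-1.61 ± 0.39). Its activating kinase gene Map3k14 (0.11 ± 0.41) and Rela of the canonical pathway (-0.16 ± 0.39) did not pass the threshold. Ltbr, the lymphotoxin receptor, was on the other side, at 48.2 and 56.2 CPM against 20.3 and 15.02 CPM (1.51 ± 0.40), a call lost without cTEC replicate 2 or either mTEC library (1.25 to 1.69).

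Of 12 costimulation genes tested, 7 were lower in cTEC (58.3%, against 21.3% of all genes) and 2 higher (16.7%, against 11.3%). Cd80, a ligand of CD28, was at 3.57 and 1.98 CPM in cTEC and 31.1 and 39.7 CPM in mTEC (-3.82 ± 0.51). Icosl, the ICOS ligand, was at 1.79 and 1.49 CPM against 61.9 and 39.8 CPM (-4.98 ± 0.54), and Cd70 at 8.94 and 4.70 CPM against 66.9 and 101.3 CPM (-3.75 ± 0.46). All 3 ligands were low in both cTEC libraries. Cd274, which encodes the inhibitory ligand PD-L1, was higher in cTEC at 294 and 152 CPM against 40.3 and 20.6 CPM (2.80 ± 0.40). The adhesion gene Icam1 did not pass the threshold (0.11 ± 0.39).

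Of 15 chemokines of the medulla 10 were lower in cTEC (66.7%, against 21.3% of all genes) and 1 higher, with a median of -2.15. Of these, 2 (Xcl1 and Ccl17) passed the filter through mTEC alone and had to be lower. Ccl19, a CCR7 ligand, was at 50.04 and 27.97 CPM in cTEC and 168 and 217 CPM in mTEC (-2.43 ± 0.41), and Cxcl9 was at 42 and 21.8 CPM against 216 and 209 CPM (-2.89 ± 0.41). Ccl22, a CCR4 ligand, was at 0 and 1.73 CPM against 21.0 and 53.4 CPM (-5.42 ± 0.61), a call lost without either cTEC library (-4.44 without replicate 1, and -13.07, which depends on the prior count, without replicate 2, with a largest adjusted p of 0.0607 in edgeR). Xcl1, which attracts dendritic cells, had no cTEC UMI and was at 16.0 and 36.4 CPM in mTEC, a log2 difference of at most -6.08, and its call was lost without cTEC replicate 2 (adjusted p 0.051 in edgeR) and under DESeq2 (0.141). Ccl21a did not pass the threshold, at 5279 and 873 CPM in cTEC and 6437 and 2893 CPM in mTEC (-1.09 ± 0.46, adjusted p = 0.061 in edgeR). Among cTEC that held a Psmb11 or Prss16 transcript, its log2 fold change was -1.63.

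Lists of genes of other organs held many members with no UMI in either cTEC library, and most members of several lists could be tested only through mTEC. Of 29 peptide hormone genes tested, 27 were lower in cTEC and none was higher. Because 20 of the 29 passed the filter only through mTEC, and 3 listed genes were too low to test, the count describes these members and supports nothing further. With genes that lack a cTEC UMI set at their bound, the median log2 difference was -4.92. Pyy, the gut hormone peptide YY, had 0 UMIs in both cTEC libraries and was at 138 and 181 CPM in mTEC, a log2 difference of at most -8.49. Nts, which encodes neurotensin, was at 87.9 and 119 CPM in mTEC with a log2 difference of at most -7.88. Ins2, one of the mouse insulin genes and an Aire-dependent antigen, was at 17.4 and 59.3 CPM in mTEC with a log2 difference of at most -6.74. Its call was lost under DESeq2 (adjusted p 0.116) and without either cTEC library (largest adjusted p 0.0693 in edgeR).

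Milk genes were lower for 6 of 7 tested, and 5 of the 7 had passed through mTEC alone. Csn2, the milk protein beta-casein, was read in all libraries, at 24.1 and 7.92 CPM in cTEC and 906 and 895 CPM in mTEC (-6.08 ± 0.51). Csn2 UMIs were found in 2.04% and 1.15% of cTEC and in 35.1% and 52.6% of mTEC at 2000 UMIs per cell. Of 20 pancreas and salivary enzyme genes tested, 17 were lower and 1 higher, and 16 had passed through mTEC alone. Of 18 liver and plasma proteins tested, 14 were lower and 2 higher, and 10 had passed through mTEC alone. The summed share of UMIs of that list was not on 1 side, at 0.0534% and 0.0243% in cTEC and 0.0350% and 0.0490% in mTEC. Alb, which encodes albumin, was at 5.11 and 5.48 CPM in mTEC with no cTEC UMI, a log2 difference of at most -3.50. Stra8, a meiotic entry gene of the testis, was at 4.02 and 0.247 CPM against 25.7 and 33.2 CPM (-4.23 ± 0.59), with -6.87 without cTEC replicate 1 and -3.08 without cTEC replicate 2. Of 18 testis antigens listed 8 could be tested, 5 of them through mTEC alone, and 6 were lower. Cryaa, a lens crystallin, had no cTEC UMI and was at 32.3 and 39.2 CPM in mTEC, a log2 difference of at most -6.31, and lost its call under DESeq2 (adjusted p 0.0918).

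Lists for the epithelial subsets that mimic other tissues differed in their counts and summed shares. Ionocyte genes held 0.00827% and 0.00339% of cTEC UMIs against 0.00508% and 0.00395% of mTEC UMIs, and tuft cell genes 0.0171% and 0.00262% against 0.0170% and 0.0391%, so for both lists the groups overlapped. Among 25 lineage factors tested, 7 of them through mTEC alone, 14 were lower and 1 higher, with a median of -2.58 with bounds. Spib, an Ets factor of microfold cells, was at 12.1 and 2.97 CPM in cTEC and 126 and 120 CPM in mTEC (-4.36 ± 0.47). Pou2af1, a coactivator of tuft and B cell programmes, had 1 UMI over both cTEC libraries and was at 26.3 and 23.5 CPM in mTEC, a log2 ratio of -7.24 (95% counting interval -12.55 to -4.76).

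Muscle genes were lower for 16 of 20 tested, and 11 of the 20 had passed through mTEC alone. Myog, the myogenic factor myogenin, had 1 cTEC UMI and was at 10.2 and 13.8 CPM in mTEC, a log2 ratio of -6.36 (-11.67 to -3.88). Des, which encodes the muscle filament desmin, was at 5.36 and 0.743 CPM against 47.6 and 37.9 CPM (-4.22 ± 0.54). Enterocyte and hepatocyte genes were lower for 20 of 22, with a median of -4.53 with bounds, and 9 of the 22 had passed through mTEC alone. Fabp6, an intestinal bile acid binding protein, was at 2.68 and 0.495 CPM against 201 and 320 CPM (-7.66 ± 0.59), and the acute-phase gene Saa3 at 2.23 and 1.98 CPM against 127 and 389 CPM (-6.96 ± 0.56). These genes were read in every library and were lower in cTEC in both data sets. Cornified envelope genes were lower for 21 of 27, and of the 27 tested 9 had passed through mTEC alone and 8 had no cTEC UMI. Ivl, which encodes involucrin, had no cTEC UMI and was at 7.87 and 2.94 CPM in mTEC, a log2 difference of at most -3.04, with its call lost without either cTEC library or mTEC replicate 1 (largest adjusted p 0.0942 in edgeR).

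Ciliated cell genes were lower for 11 of 16 and neuroendocrine genes for 9 of 12. In these lists 4 and 6 genes had passed through mTEC alone and could not have been higher. Chga, the granule protein chromogranin A, was at 5.81 and 0.99 CPM in cTEC and 28.7 and 27.1 CPM in mTEC (-3.41 ± 0.53). Insm1, a zinc finger factor of endocrine cells, was at 8.94 and 7.67 CPM against 80.5 and 107 CPM (-3.58 ± 0.43). Of 9 ionocyte genes tested 5 were lower and 1 higher, and 5 had passed through mTEC alone. Of 21 tuft cell genes, 6 of which had passed through mTEC alone, 11 were lower and 10 did not pass the threshold. Their median was -0.64 in the first data set and -6.43 in the second, with opposite signs for 7 genes, and their summed share of UMIs was 0.0171% and 0.00262% in cTEC against 0.0170% and 0.0391% in mTEC. Pou2f3, the tuft cell master factor, was at 2.23 and 2.48 CPM against 4.57 and 6.62 CPM (-1.32 ± 0.68), and Dclk1, a tuft cell kinase, at 34.0 and 10.9 CPM against 31.2 and 30.9 CPM (-0.75 ± 0.43). Neither passed the threshold, and cTEC replicate 1 reached the mTEC level of Dclk1. Of 13 microfold genes 7 were lower, and Gp2, a microfold receptor, did not pass (0.62 ± 0.45).

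Secretory and mucosal genes lay on both sides, with 8 of 28 higher in cTEC and 15 lower, and 9 of the 28 had passed through mTEC alone. Bpifa1, a secreted airway defence protein, was at 2923 and 1451 CPM in cTEC and 40.6 and 75.5 CPM in mTEC (5.14 ± 0.51). Not every cTEC held a UMI of Psmb11 or Prss16, as given above, and which cTEC held the higher genes is not reported here. Scgb3a2, an airway secretoglobin, was at 61.7 and 38.4 CPM against 4.03 and 4.62 CPM (3.40 ± 0.44), and Wfdc2, a secreted protease inhibitor, was higher by 2.46 ± 0.43 on the log2 scale. The call of Wfdc2 was lost without mTEC replicate 1 (2.14 to 2.69 over the 4 omissions). Against them, the trefoil peptide gene Tff3 had 3 cTEC UMIs and was at 84.4 and 204 CPM in mTEC, a log2 ratio of -8.56 (95% counting interval -10.84 to -7.02). Lyz1, the Paneth cell lysozyme, was at 4.47 and 5.45 CPM against 138 and 204 CPM (-5.18 ± 0.47).

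**Figure D4:**
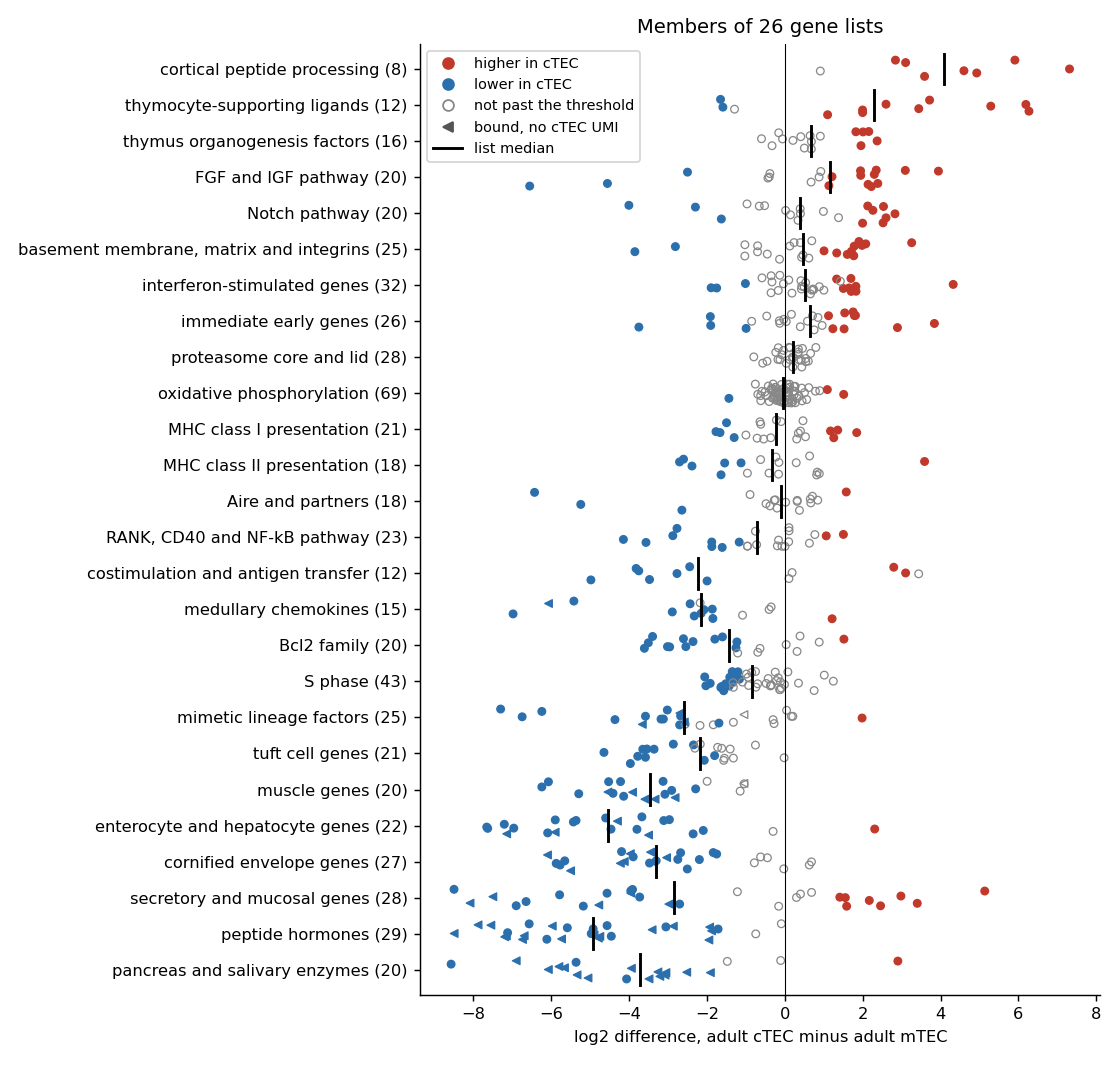
Log2 difference of cTEC over mTEC for the tested members of 26 gene lists (number tested in brackets); red and blue points passed the threshold, open points did not, triangles are bounds for genes without a cTEC UMI, and black bars are medians. Cortical processing genes had a median of 4.10 with the sort gene Enpep included, constitutive proteasome genes of 0.20 with none past the threshold, and peptide hormones of -4.92.

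Transcription factors of thymus organogenesis were either higher in cTEC or did not pass. Of 16 tested, 5 were higher (31.25%, against 11.3% of all genes) and none lower (against 21.3%). Trp63, the p63 factor of epithelial progenitors, was at 218 and 90.6 CPM in cTEC and 34.3 and 19.3 CPM in mTEC (2.37 ± 0.39). Pax1 and Eya1, both needed for the pharyngeal pouch, were higher by 1.96 ± 0.42 and 2.01 ± 0.40. The calls of Trp63 and Eya1 were lost without cTEC replicate 1 (1.78 and 1.16) and that of Pax1 without cTEC replicate 2 (1.08). Pax9 (0.68 ± 0.37) did not pass the threshold. Myc, whose activity the study followed through development, was at 36.2 and 45.8 CPM in adult cTEC and 54.9 and 25.8 CPM in adult mTEC, and did not pass (0.05 ± 0.41, adjusted p = 0.942 in edgeR).

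FGF and IGF pathway genes were mostly higher in cTEC, with 11 of 20 higher (55%) and 3 lower (15%). The shares over all genes were 11.3% and 21.3%, and the list median was 1.17. Igfbp7, a secreted IGF-binding protein, was at 67.0 and 248 CPM in cTEC and 10.6 and 6.22 CPM in mTEC (3.95 ± 0.49). Feedback genes of receptor tyrosine kinase signalling were among them, with Spry1 higher by 2.30 ± 0.46 and Dusp6 by 1.95 ± 0.45. The call of Spry1 was lost without cTEC replicate 2 (1.34) and that of Dusp6 without either cTEC library or mTEC replicate 2 (1.16 to 2.68 over the 4 omissions) or without the block (adjusted p 0.0738 in edgeR). Fgf21, an endocrine FGF, went the other way, at 10.3 and 5.69 CPM against 872 and 531 CPM (-6.55 ± 0.51). Igf1, the ligand itself, was at 16.98 and 20.1 CPM against 57.7 and 163 CPM (-2.50 ± 0.42), a call lost without either cTEC library (largest adjusted p 0.125 in edgeR).

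Of 20 Notch pathway genes, 7 were higher in cTEC (35%) and 3 lower (15%), against 11.3% and 21.3% of all genes. Beside Dll4, the ligand genes Dll1 (2.83 ± 0.43) and Jag1 (1.999 ± 0.42) and the target gene Hey1 (2.54 ± 0.43) were higher. Hey1 was at 52.3 and 115 CPM in cTEC and 15.4 and 10.8 CPM in mTEC. Dll1 lost its call without either cTEC library (2.22 to 3.33 over the 4 omissions), and Jag1 without cTEC replicate 1 or mTEC replicate 2 (1.26 to 2.64). Mfng, a glycosyltransferase that modifies Notch, was lower at 1.34 and 1.73 CPM against 25.96 and 22.9 CPM (-4.0045 ± 0.55). In the Wnt pathway 8 of 27 were higher (29.6%) and 5 lower (18.5%). Fzd3, a Wnt receptor, was at 15.6 and 32.7 CPM against 3.43 and 3.83 CPM (2.61 ± 0.45), and the ligand Wnt10a at 5.36 and 3.46 CPM against 70.1 and 61.9 CPM (-4.02 ± 0.47). In the BMP and TGF-beta pathway 5 of 28 were higher (17.9%) and 3 lower (10.7%), with Bmp4, described above, tested through cTEC alone. The ligand Bmp2 was at 2.23 and 5.69 CPM against 34.9 and 33.2 CPM (-3.15 ± 0.49).

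Krt18, the simple-epithelial partner of Krt8, was at 5910 and 6897 CPM in cTEC and 1446 and 1325 CPM in mTEC (2.13 ± 0.45), a call lost without either mTEC library (1.89 to 2.32 over the 4 omissions). Krt8 itself was at 3050 and 3546 CPM against 1661 and 1775 CPM and did not pass the threshold (0.86 ± 0.43, adjusted p = 0.118 in edgeR), though it passed with library totals alone or with DESeq2. The basal keratins Krt5 and Krt14 were lower, at 287 and 148 CPM against 605 and 342 CPM (-1.22 ± 0.39) and at 286 and 194 CPM against 1086 and 619 CPM (-1.88 ± 0.41). Krt5 lost its call with any 1 library left out (-1.66 to -0.88) or without the block (adjusted p 0.085 in edgeR), and Krt14 without either cTEC library or mTEC replicate 1 (-2.27 to -1.58). Krt20, a keratin of simple gut epithelium, was at 0 and 1.73 CPM in cTEC and 42.5 and 50.3 CPM in mTEC (-5.63 ± 0.61), with -4.74 without cTEC replicate 1 and -13.37 without cTEC replicate 2, where the remaining cTEC library had no UMI and the value depends on the prior count. Krt6a, a keratin of stratified epithelium, was higher in cTEC at 45.1 and 15.1 CPM against 4.51 and 5.73 CPM (2.27 ± 0.46), a call lost without cTEC replicate 1 (1.55). Over the 44 keratin genes tested, 32 were lower and 2 higher, and 16 of the 44 had passed the filter through mTEC alone.

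Of 27 junction genes 5 were higher in cTEC (18.5%, against 11.3% of all genes) and 7 lower (25.9%, against 21.3%). Cldn8, a barrier claudin, was at 21.9 and 42.6 CPM in cTEC and 1.74 and 0.713 CPM in mTEC (4.78 ± 0.53). Cldn13 was at 10.7 and 0.743 CPM against 78.6 and 128 CPM (-4.67 ± 0.56), with -7.12 without cTEC replicate 1 and -3.48 without cTEC replicate 2. It was joined by the gap junction gene Gjb2, at 4.47 and 4.95 CPM against 70.8 and 78.9 CPM (-4.06 ± 0.46). Basement membrane and matrix genes had 10 of 25 higher in cTEC (40.0%) and 2 lower (8.0%). Col4a5, a basement membrane collagen chain, was at 11.2 and 10.4 CPM against 1.32 and 0.876 CPM (3.26 ± 0.63). The laminin genes Lamc1 and Lamb1 were higher by 2.08 ± 0.46 and 1.91 ± 0.40, and both calls were lost without cTEC replicate 1 or mTEC replicate 2, that of Lamc1 also without cTEC replicate 2 (lowest 1.44 and 1.47). Mesenchymal markers held larger shares of cTEC than of mTEC UMIs, and those of endothelial markers overlapped between the groups, as given above. Their part in these matrix values was not tested. Itgb8, an integrin that activates latent TGF-beta, was lower at 2.68 and 0.99 CPM against 22.8 and 22.7 CPM (-3.85 ± 0.55).

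Of 32 interferon-stimulated genes 8 were higher in cTEC (25%, against 11.3% of all genes) and 3 lower (9.38%, against 21.3%). Of 26 immediate early genes 9 were higher (34.6%) and 4 lower (15.4%). Isg20, an interferon-induced exonuclease, was at 371 and 855 CPM in cTEC and 21.6 and 33.0 CPM in mTEC (4.33 ± 0.45). The general antiviral gene Isg15 was higher by 1.504 ± 0.41, a call lost with any 1 library left out (0.96 to 1.94) or without the block (adjusted p 0.0603 in edgeR). Cyr61, a matricellular growth-response gene, was at 639 and 278 CPM against 99.8 and 29.0 CPM (2.89 ± 0.41), a call lost without either cTEC library (2.10 to 3.75 over the 4 omissions). Fos and Jun, which respond to cell dissociation as well as to growth signals, were higher by 1.12 ± 0.43 and 1.54 ± 0.42, both lost with any 1 library left out (0.63 to 1.58 and 0.93 to 1.99) and without the block (adjusted p 0.169 and 0.0853 in edgeR). The immediate early list took 2.06% and 1.28% of cTEC UMIs and 1.14% and 0.654% of mTEC UMIs, so within each data set cTEC was higher, and replicate 1 was higher in both kinds of cell. Time from dissociation to capture is not given in the sources used here.

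Endoplasmic reticulum stress genes were lower in cTEC for 8 of 20 (40%, against 21.3% of all genes) and higher for none (against 11.3%). Herpud1, a stress-induced degradation factor of the endoplasmic reticulum, was at 60.3 and 44.1 CPM in cTEC and 203 and 178 CPM in mTEC (-1.96 ± 0.39). The chaperone genes Hspa5 (-1.09 ± 0.41) and Hsp90b1 (-1.22 ± 0.40) were lower, both calls lost with any 1 library left out (-1.34 to -0.89 and -1.37 to -1.11) and that of Hspa5 without the block (adjusted p 0.063 in edgeR). Among 33 translation factors 7 were lower (21.2%, close to the 21.3% of all genes) and 1 higher, with a median of -0.55. Of 69 oxidative phosphorylation genes 2 were higher and 1 lower (median -0.03), and of 58 ribosome biogenesis genes 2 were higher and 4 lower (median -0.12). Glycolysis genes had 1 of 19 higher and 3 lower (median -0.64), and cytosolic ribosomal protein genes 3 of 78 higher and 1 lower (median -0.44). Mitochondrially encoded genes had 2 of 13 higher and 2 lower (15.4% each way), with medians of -1.75 and 0.16 in the 2 data sets.

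S phase genes were lower in cTEC for 15 of 43 (34.9%, against 21.3% of all genes) and higher for none, with a median of -0.85. Of 52 G2M genes 9 were lower (17.3%) and 2 higher (3.85%), both under the shares over all genes. Of 19 G1 cyclins, kinases and inhibitors 6 were lower (31.6%), 2 higher (10.5%, near the 11.3% of all genes) and 11 did not pass. At 2000 UMIs per cell, a UMI of Mki67, a protein of dividing cells, was found in 6.58% and 3.26% of cTEC and in 1.77% and 3.10% of mTEC, with 95% counting intervals that separated in the first data set and overlapped in the second. Uhrf1, a maintenance factor of DNA methylation, was at 5.81 and 10.2 CPM in cTEC and 32.8 and 29.2 CPM in mTEC (-2.03 ± 0.45). Cdc25c, a phosphatase that opens mitosis, was at 0.894 and 3.22 CPM against 30.9 and 28.7 CPM (-3.84 ± 0.53). Among inhibitors of the cell cycle, Cdkn1c was lower at 15.2 and 8.91 CPM against 104 and 165 CPM (-3.58 ± 0.44) and Cdkn2a was lower at 9.83 and 1.98 CPM against 45.3 and 43.2 CPM (-3.28 ± 0.50). In the Bcl2 family 12 of 20 were lower (60%, against 21.3% of all genes) and 1 higher (5%, against 11.3%), with a median of -1.43. Of the 20 tested, 1 had passed the filter through mTEC alone. Bik and Pmaip1, which promote cell death, were at 7.59 and 3.96 CPM against 39.4 and 41.2 CPM (-2.96 ± 0.47) and at 26.8 and 4.46 CPM against 70.6 and 64.1 CPM (-2.60 ± 0.46). Pmaip1 fell by 3.91 without cTEC replicate 1 and by 1.53 without cTEC replicate 2, and its adjusted p was 0.0658 without the block in edgeR. Bcl2 itself, which protects from death, was the member that was higher (1.52), a call lost without either mTEC library (1.34 to 1.65 over the 4 omissions).

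The number of genes read per cell was close between the 2 epithelia, while the number read over a population was not. At 2000 UMIs a cell, with shallower cells left out, the median was 1068 and 1012 genes in cTEC and 1024 and 1001 genes in mTEC. Without thinning the medians were 1751 and 2374 against 2825.5 and 3123, in libraries whose UMIs per cell differed in the same direction. When 350 cells of each library were pooled at 2000 UMIs each, 14060 and 12977 genes had a UMI in cTEC and 15465 and 15588 in mTEC. Both mTEC pools were thus larger than both cTEC pools, which with 2 libraries a group cannot be tested below p = 0.333 in an exact permutation test. The leading 300 and 228 genes held the first 50% of UMIs in cTEC and the leading 282 and 236 in mTEC, so the groups overlapped there. Over all cells 6499 genes had a UMI in mTEC and none in cTEC, and 107 the reverse, with more UMIs behind mTEC than cTEC. With each library thinned to the total of the smallest, 16260 and 14771 genes were read in cTEC and 18030 and 18374 in mTEC.

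**Figure D5:**
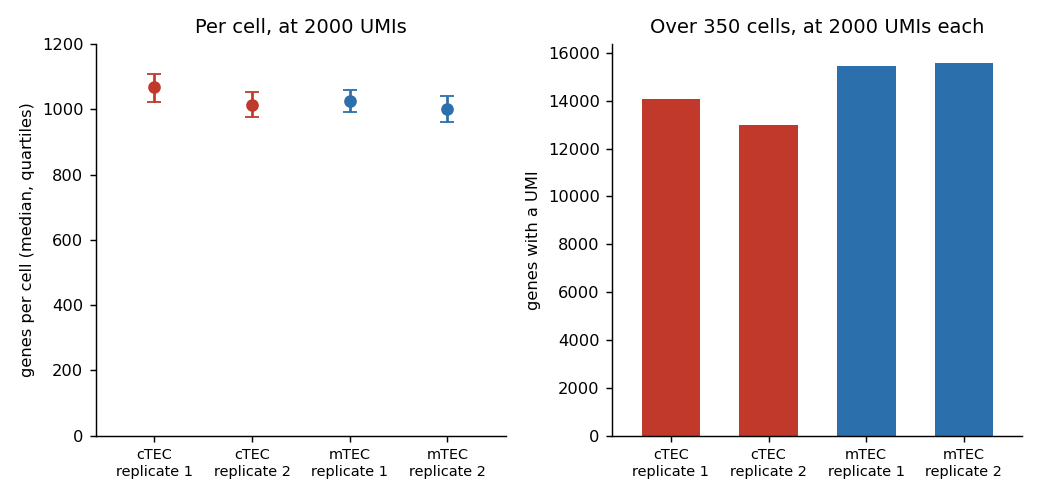
Genes with a UMI at 2000 UMIs per cell in the 4 libraries: left, the median per cell with quartiles as bars (1068 and 1012 in cTEC, 1024 and 1001 in mTEC); right, the number over 350 pooled cells (14060 and 12977 in cTEC, 15465 and 15588 in mTEC). The cells overlap on the left and the mTEC pools are larger on the right.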

How the data were processed

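Single-cell transcripts were counted per gene by the authors with Cell Ranger 2.0.1 and STAR 2.5.1b on mm10 after bcl2fastq 2.17, per the submitters' processing notes. The matrix headers of the second data set give software version 3.0.1 and those of the first give none, so the 2 may not have been counted alike. The deposited values were raw UMI counts per gene and cell from 3′ 10x Chromium libraries, with no normalization. Such libraries read transcript ends, and free RNA and doublets stay in the counts. No doublet caller was run here. Barcodes over 5% mitochondrial UMIs or 5000 genes were dropped, which left as many cells as the study describes in the first data set and more in the second, where a further filter is possible, and counts were summed per library over the 27514 genes listed in both data sets, out of 27998 and 31053. CPM used the library's total over these genes, except that genes listed only in the second data set were scaled to the total over all its genes.

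Summed counts were tested in edgeR 4.0.16 (R 4.3.3, limma 3.58.1) by quasi-likelihood, with kind of cell and data set as terms, low genes removed by filterByExpr, libraries scaled by TMM and Benjamini-Hochberg adjustment at 0.05. The fit had 1 residual degree of freedom, so the spread was borrowed across genes (common biological coefficient of variation 0.2996, prior degrees of freedom 53.7). Replicate numbers in the labels follow the 2 data sets of the study's methods, which is the pairing in the block. Counts were also simulated with the spread of the fit, and 200 genes above 5 log2 CPM were changed by 2 on the log2 scale. Of these, 186 were recovered among 15650 genes, and 6.53% of 199 calls were false. Recovery of changes in genes of lower level was not simulated. Genes with no cTEC UMI were given a bound from 3 UMIs over both cTEC libraries, and genes with 1 to 3 a ratio of library totals with an exact 95% counting interval. Intervals, bounds and shares of cells cover counting error only. Alternatives were other scaling, no filter, DESeq2 1.42.0, no block, thinning, other cell limits and each library left out. The fits with a library left out had no block.

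Gene lists and members were chosen with earlier results of these data known. By rule, the text names preset lead genes, up to 4 called members of each list and up to 2 of each gene family with the largest change and the same sign in both data sets, and the 15 largest changes in each direction among genes above 5 log2 CPM. Other list members named (Cd83, Il15, Dcn, H2-K1, H2-D1, Cd74, H2-Aa, H2-Ab1, Ctsh, Ctsz, Cdk9, Top2b, Relb, Map3k14, Rela, Ltbr, Cd274, Icam1, Des, Fabp6, Saa3, Scgb3a2, Wfdc2, Tff3, Lyz1, Pax9, Spry1, Dusp6, Igf1, Jag1, Isg15, Fos, Jun, Hspa5, Hsp90b1, Bcl2, Bik, Pmaip1, Il33, Il34, Defb1, Klk1 and Sprr2a1) were chosen after their values were seen. Python 3.11.15 with numpy 2.4.6, pandas 2.3.3, scipy 1.17.1 and matplotlib 3.10.9 did the rest. Promoter sequences came from RefSeq (GRCm38.p6), with entries for 11978 of the tested genes, and gene starts from GENCODE vM21. Fetal and newborn libraries were not analysed here, and some genes are not reported here.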

Additional observations from a re-analysis of the deposited data

Results flagged for a closer look

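The annotation of the second data set lists 3539 genes that the first does not, so they entered no comparison. Of these, 9 reached 50 CPM in one adult library of that data set with at least a 4-fold gap to the other, and each rests on 1 library of each kind with no replicate. T cell receptor constant genes lay on the cTEC side. Trbc1 was at 72.6 CPM in cTEC replicate 2 and 5.21 CPM in mTEC replicate 2, 13.94 times as high in cTEC, and Trbc2 was at 84.7 and 13.504 CPM (6.28 times). Immunoglobulin constant genes lay on the mTEC side. Igkc was at 1.48 CPM in cTEC and 54.4 CPM in mTEC (36.73 times as high in mTEC), and Iglc3 at 5.68 and 87.0 CPM (15.31 times). The thymocyte and B cell marker lists had their larger shares of UMIs on the same sides. The other 5 were gene models without an assigned function, each higher in mTEC: Gm36899 by 213.57 times, Gm48239 by 63.02 times, Gm47938 by 33.82 times, Gm42031 by 11.45 times and AC139671.1 by 10.00 times. Among them Gm42031 had the largest mTEC level, 591 CPM against 51.6 CPM in cTEC.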

How the results depend on the processing

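Against 5110 calls (1771 higher and 3339 lower in cTEC), DESeq2 gave 2591 (945 and 1646), libraries thinned to the smallest total 3230 (1945 lower), and cells thinned to the same UMIs 3154 (1924 lower). Without 1 library the counts ranged from 2051 to 2922 in all, from 619 to 869 higher and from 1348 to 2079 lower. These fits had fewer samples and no block, so their values also carry differences between the data sets. With no replicate block, so without the pairing by data set, 4257 genes passed (1360 higher and 2897 lower). Of 320 called genes named by rule, 205 stayed past the threshold in every alternative that kept all libraries and tested them. Fewer stayed when a library was left out, and 97 lost the call under DESeq2. Thinned libraries tested 275 and thinned cells 262 of the 327 named genes. Of 59 gene lists with a median of at least 1 in size, 6 changed sign in some alternative: endothelial markers (1.15, and -2.14 among cTEC with a Psmb11 or Prss16 transcript), myeloid markers (-1.01, and 0.53 without cTEC replicate 2), and GABA and glutamate receptors, Hox genes, potassium channels and Tex genes, whose medians are not printed. The log2 fold change of Gp2, not called, was -0.12 with thinned cells, -1.84 among cTEC with a Psmb11 or Prss16 transcript and between -0.35 (without mTEC replicate 1) and 1.54 with a library left out. The log2 fold change of Myc, not called, was -0.0007 without the filter, -0.0226 without the block, -0.16 with thinned libraries, -0.0179 with thinned cells, -0.0841 among cTEC with a Psmb11 or Prss16 transcript, -0.35 without cTEC replicate 2 and -0.47 without mTEC replicate 2 (-0.47 to 0.49 over the 4 omissions). Called genes turned as well: the log2 fold change of Pigr (1.41 in the main comparison) was -0.28 in those cTEC, and the log2 fold change of Rps27 (1.40) was -2.72 without cTEC replicate 2 and -0.34 without mTEC replicate 1 (-2.72 to 5.52 over the 4 omissions). The cause was not tested. Without thinning, the ratio of genes per cell (1.027 at 2000 UMIs) was 0.69, and the gap in cells with a UMI was 45.5 points for Psmb11 or Prss16, -62.0 for Aire and -65.8 for Csn2; at 3000 UMIs that of Aire was -43.4. Depth limits cTEC most, where 3 UMIs correspond to 1.34 and 0.743 CPM in the 2 libraries.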

Other observations

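Defence and barrier gene families, which share some members with the lists above, held members on both sides. Many could be tested only through their mTEC level (18 of 21 defensins, 10 of 24 kallikreins, 18 of 57 interleukin genes and 3 of 14 S100 genes), and those members had to be lower, so the count of lower defensins was largely fixed by the filter. Of 14 S100 genes tested 9 were lower in cTEC and 2 higher. S100a8, a calcium-binding alarmin subunit, was at 0 and 1.73 CPM in cTEC and 730 and 911 CPM in mTEC (-9.78 ± 0.66), with -8.88 without cTEC replicate 1 and -17.52 without cTEC replicate 2, where the remaining cTEC library had no UMI and the value depends on the prior count. Of 57 interleukins and interleukin receptors tested 33 were lower and 3 higher. Il13 was at 9.38 and 1.24 CPM against 117 and 110 CPM (-4.88 ± 0.51), while Il33, an alarmin cytokine, was at 36.6 and 55.9 CPM against 6.55 and 4.17 CPM (3.06 ± 0.45) and Il34, a ligand of the CSF1 receptor, at 16.98 and 14.4 CPM against 2.58 and 3.58 CPM (2.26 ± 0.49). Of 21 defensins tested among 64 listed 20 were lower, and Defb1, a constitutive epithelial defensin, was higher at 52.7 and 58.2 CPM against 15.1 and 21.1 CPM (1.56 ± 0.39), a call lost without cTEC replicate 2 or mTEC replicate 1 (1.21 to 1.82 over the 4 omissions). Of 24 kallikreins 16 were lower, and Klk1 was higher at 219 and 156 CPM against 11.9 and 44.8 CPM (2.90 ± 0.45), a call lost without either cTEC library (1.85 to 3.89).

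Of 14 small proline-rich genes tested, 8 of them through mTEC alone, 10 were lower in cTEC and 3 higher. One of the 3, Sprr2a1, a cornified envelope precursor, differed between the cTEC libraries. It was at 88.9 CPM in cTEC replicate 1 and 0.99 CPM in cTEC replicate 2, against 3.31 and 0.416 CPM in mTEC (3.48 ± 0.59). The value was -0.80 without cTEC replicate 1 and 5.54 without cTEC replicate 2, and neither passed the threshold. Its paralogues share sequence, so reads could be split among them. Of 318 zinc finger genes named Zfp 34 were higher in cTEC (10.7%, near the 11.3% of all genes) and 10 lower (3.14%, against 21.3%), with a median of 0.32. Nqo1, a quinone reductase of the antioxidant response, was at 130 and 176 CPM against 20.8 and 21.5 CPM (2.77 ± 0.40). Of 26 antioxidant genes tested 6 were higher (23.1%) and 7 lower (26.9%), against 11.3% and 21.3% of all genes. Thbd, the anticoagulant receptor thrombomodulin, was at 12.5 and 19.8 CPM against 0.962 and 0.475 CPM (4.55 ± 0.60), and passed the filter on low counts through cTEC alone, so it had to be higher there. The shares of UMIs of endothelial markers, a list without Thbd, are given in the report and overlapped between the groups; their part was not tested.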
